A study of Homo sapiens with 3 samples.

Results

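Kinesins are motor proteins that use ATP to move along microtubules or to shorten them. The kinesin motor genes were taken as all probe sets whose only annotated symbol was KIF followed by a number, with or without a letter, or KIFC followed by a number. The rule found 101 of the 49388 probe sets on the arrays, for 41 of 18131 genes. Of these 41 genes, 12 were grouped by textbook role as mitotic motors, 15 as transport motors of interphase cells, and 14 as others with other, several or less settled roles.

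The values came from 3 arrays of LNCaP, an established human prostate cancer line. Cells were transfected in phenol red-free serum medium with 75 nM of a control siRNA, of HOXD-AS1 siRNA 1 or of HOXD-AS1 siRNA 2, and RNA was taken at 48 h. HOXD-AS1 is a long non-coding RNA from the HOXD gene cluster, and the series looked for genes that differ when it is knocked down. Each group held 1 array, so nothing below has a replicate check and no test between groups could be made. All cells were of 1 cell line by the cell line label, but the source labels read LNCaP for the control, LNCaP-Bic for siRNA 1 and LNCaP-AI for siRNA 2. A difference between cells of these names cannot be told apart from a difference between siRNAs. Another label places the target points, 588 for siRNA 1 and 1290 for siRNA 2, on the WDR5 coding sequence, although the siRNAs are named for HOXD-AS1. Which transcript was targeted is thus not settled by the labels, and the values below are differences between the arrays so named. The knockdown was not read from these arrays. Under a label for the inhibition rate, siRNA 1 has 0.23 and siRNA 2 has 0.25 where the control has 1, with no word on how this was measured.

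The reagents that define the groups are shown as the labels write them, 1 strand each.
Control siRNA: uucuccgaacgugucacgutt
HOXD-AS1 siRNA 1: gaaagaaggaccaaaguaauu
HOXD-AS1 siRNA 2: gcccuuucugaccugcuuauu

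Median intensities were 25.7 to 26.1 on the 3 arrays. Values below the median of all values, an intensity of 26, were raised to that floor, and a gene was called measured where at least 1 array lay above it. This left 30 of the 41 kinesin genes and 11286 of all genes. All 12 mitotic, 12 of 15 transport and 6 of 14 other kinesins were measured. Measured genes include any that passed on 1 array alone, but among the kinesins only KIF20B was not above the floor on all 3 arrays. The summed intensity of the 6 luminal prostate markers used here was 13164.8, 13866.4 and 11476.6 on the control, siRNA 1 and siRNA 2 arrays, a sum led by KLK2. Single markers went different ways, with log2 differences of -0.68 for KLK2 and 0.40 for KRT8 with siRNA 2, and of 0.53 for TMPRSS2 and -0.16 for KLK3 with siRNA 1. Of the leukocyte markers 0 of 3 were measured, and of the basal markers KRT14 alone, at 47.8 to 55.9. Of 4 markers of androgen receptor-negative lines and stroma, VIM read 660.1, 593 and 735, COL1A1 read 34, 26.6 and 33.6, and CAV1 and COL1A2 were under the floor. The part of these marker differences in the results below was not tested.

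In dividing cells a set of kinesins builds the bipolar spindle, moves chromosomes and completes cytokinesis. Most of their genes are transcribed mainly in the G2 and M phases of the cell cycle. Transport kinesins instead carry vesicles, organelles and ciliary cargo in cells at any stage, and their genes are not generally tied to the cell cycle. A growing culture of cancer cells holds cells at all of these stages.

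The mitotic kinesins were lower with either siRNA than in the control, and the transport kinesins as a group were not. With siRNA 1, 12 of 12 measured mitotic kinesins were below the control, where 48.0% of all measured genes were, 10 were at least 1.5-fold lower (6.16%), and 9 were at least 2-fold lower, where 1.76% of all measured genes were. Their median log2 difference was -1.35, beside 0.00 over all measured genes. With siRNA 2, 12 of 12 were again below the control (46.9% of all measured genes), 6 were at least 1.5-fold lower (4.67%) and 1 was at least 2-fold lower (0.603%). The median was -0.68, beside 0.01 over all measured genes. Of 12 measured transport kinesins, 3 were below and 9 above the control with siRNA 1, where 50.3% of all measured genes were above, and 6 were below and 6 above with siRNA 2, where 51.7% were above. None of the 12 was 2-fold different from the control in either direction, where 1.36% of all measured genes were 2-fold higher with siRNA 1 and 0.789% with siRNA 2. Their medians were 0.17 and -0.01. The mitotic median minus the transport median was -1.52 on the log2 scale with siRNA 1, a 2.86-fold gap, and -0.67 with siRNA 2, a 1.59-fold gap. With the floor raised to the 75th percentile of all values, 7 mitotic kinesins were measured, their siRNA 1 median was -0.78 and 3 of them were 2-fold lower. Both siRNA differences use the same control array, so they are not independent of each other. In RNA from a whole culture, fewer dividing cells and less transcript in each cell cannot be told apart.

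**Figure D1:**
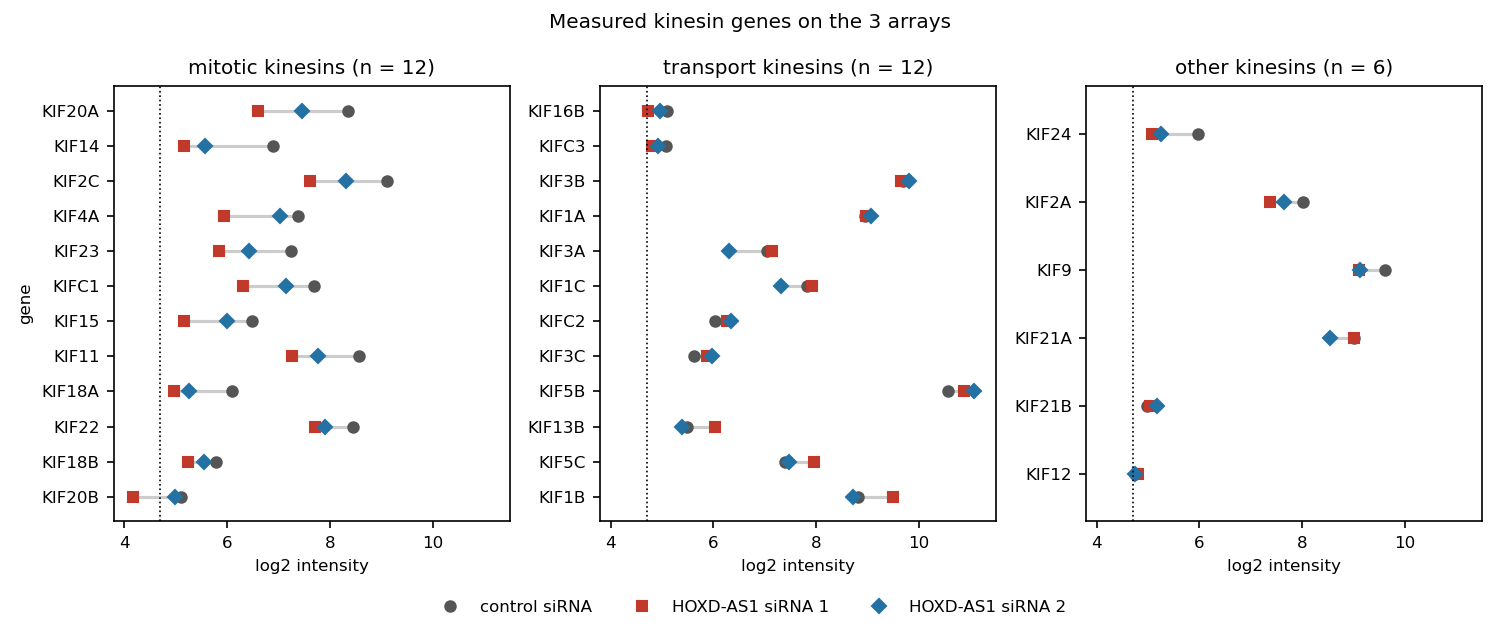
Log2 intensity (x axis) of each measured kinesin gene (y axis) on the control, siRNA 1 and siRNA 2 arrays, 1 point per array, with the floor as a dotted line. Genes run from the lowest siRNA 1 difference at the top. In all 12 mitotic rows the control point is the highest and the siRNA 1 point the lowest, which holds for 2 of the 12 transport rows. Positions are to be compared within a row, not between genes.

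The motors that set up the spindle had alike differences with siRNA 1 and less alike ones with siRNA 2. KIF11, which pushes antiparallel spindle microtubules apart, read 381 on the control array, 153 on the siRNA 1 array and 219.6 on the siRNA 2 array. These are log2 differences from the control of -1.31 and -0.80, and its other probe set gave -0.93 and -0.54, the first of these against the floor. KIF15, which can hold the spindle bipolar beside KIF11, read 89.3, 36.1 and 64.1, with differences of -1.31 and -0.48. The difference was thus the same in size for both motors with siRNA 1 and smaller for KIF15 with siRNA 2. KIFC1, a minus-end-directed motor that gathers spindle poles, read 207, 79.4 and 141, with differences of -1.39 and -0.56. For all 3 genes the siRNA 2 array lay between the other arrays.

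Among motors that act on chromosomes and on microtubule length, the differences were more varied. KIF2C, which removes tubulin at kinetochores and does not walk, read 557 on the control array, 195 on the siRNA 1 array and 318 on the siRNA 2 array. Its differences were -1.52 and -0.81, and its other probe set gave -1.72 and -0.92. KIF18A, which limits the swings of chromosomes at the metaphase plate, read 68.8, 31.4 and 38.3, with differences of -1.13 and -0.84. For KIF18A the siRNA arrays lay close together, at 0.29 apart on the log2 scale. KIF18B, which trims astral microtubules, read 54.8, 37.7 and 46.8, or -0.54 and -0.23. A second KIF18B probe set held exactly the same values, so it adds no separate reading, and its 2 remaining probe sets were under the floor. The chromokinesins, which bind chromosome arms, are KIF4A and KIF22. KIF4A, which also works with PRC1 in the spindle midzone, read 167, 61.4 and 132, with differences of -1.44 and -0.34. This was the only kinesin with a 2-fold gap between the siRNA arrays, 2.14-fold lower with siRNA 1 than with siRNA 2, where 0.656% of all measured genes were 2-fold lower. Its second probe set, close to the floor at 34.1, 27 and 25.1, did not show that gap. A further probe set annotated to both KIF4A and KIF4B, and so outside the members, read 179, 67.2 and 125. KIF22 read 349.9, 209 and 241, with differences of -0.74 and -0.54, and its other probe sets gave -1.18 and -0.05 with siRNA 1 and -0.78 and -0.05 with siRNA 2, all but the -0.78 against the floor.

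The cytokinesis motors held both the largest and, with the floor applied, the smallest differences of the mitotic group. KIF14, which recruits citron kinase to the midbody, read 119 on the control array, 35.9 on the siRNA 1 array and 47.9 on the siRNA 2 array. Its siRNA 2 difference of -1.31 was the only one among the kinesins past 2-fold, and its other probe set gave -0.96, just short of it. KIF20A, which brings the chromosomal passenger complex to the midzone, read 325, 97.4 and 176, with differences of -1.74 and -0.88. KIF23, the motor subunit of centralspindlin, read 152, 57.6 and 86.3, or -1.40 and -0.82. Its second probe set was above the floor in the control alone, at 31.5, and gives only a bound. KIF20B, another motor of late mitosis, read 34.3, 17.9 and 31.6. With the siRNA 1 value under the floor, its difference of -0.40 is a bound, and without a floor it was -0.93. With siRNA 2 it was -0.12, the smallest in the group. With the floor applied, the mitotic kinesins nearest to the 2-fold threshold on either side with siRNA 1 were KIF22 at -0.74 and KIF18A at -1.13. Without a floor KIF20B lay between them.

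**Figure D2:**
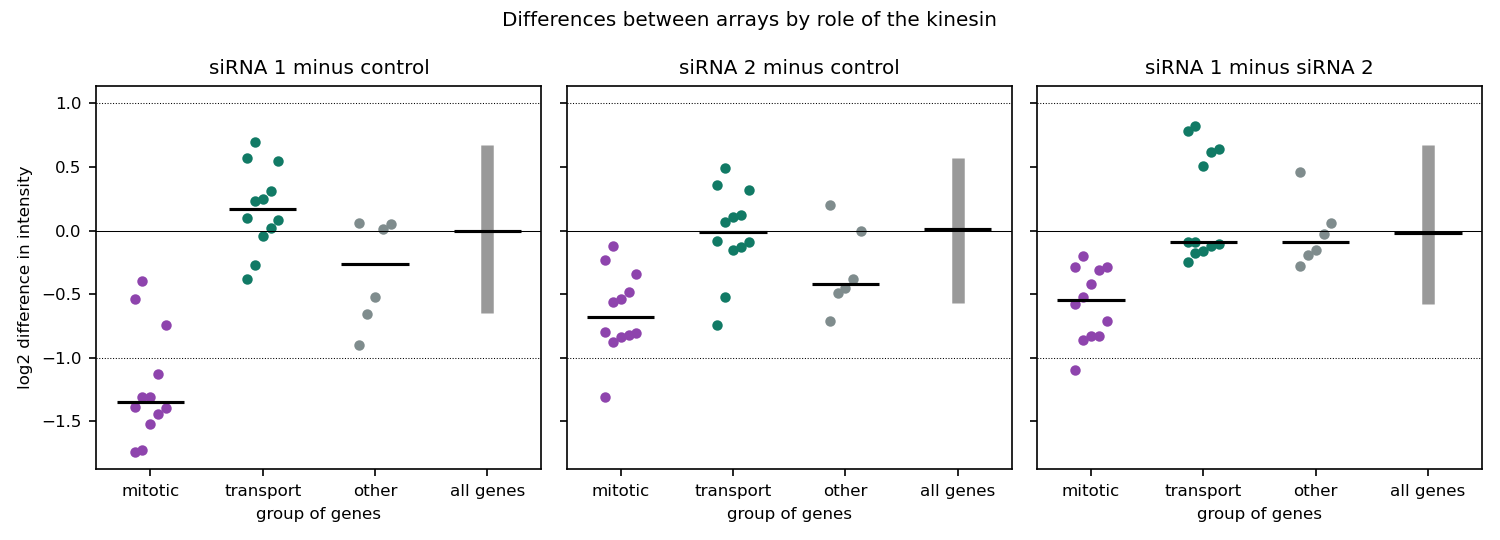
Log2 difference in intensity (y axis) of each measured kinesin (points) by role, for siRNA 1 minus control, siRNA 2 minus control and siRNA 1 minus siRNA 2. Black bars are medians, the grey bar spans the 5th to 95th percentile of all 11286 measured genes, and dotted lines mark 2-fold. With siRNA 1 the mitotic points run from -1.74 to -0.40 and the transport points from -0.38 to 0.70, which is a gap of a few hundredths between KIF20B, a bound set by the floor, and KIF16B. With siRNA 2 the groups overlap, and over single probe sets they overlap with siRNA 1 too, at -1.74 to -0.05 and -0.59 to 0.70.

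The siRNA arrays can be compared without the control. The mitotic kinesins were lower with siRNA 1 than with siRNA 2 in 12 of 12 genes, where 53.1% of all measured genes were, and at least 1.5-fold lower in 5 (4.87%). Their median difference was -0.55, beside -0.02 over all measured genes, and was -0.22 over 7 genes with the floor at the 75th percentile. The genes differed widely in this respect, from -1.10 for KIF4A to -0.20 for KIF22. KIF20A (-0.86), KIF15 (-0.83) and KIFC1 (-0.83) were nearer to KIF4A, whereas KIF14 (-0.42) and KIF18A (-0.29) were nearer to KIF22. With the probe set of highest mean for each gene, the 12 transport kinesins lay in separate ranges here. KIF3A, KIF1B, KIF13B, KIF1C and KIF5C were higher with siRNA 1 by 0.51 to 0.82, and the other 7 were lower with siRNA 1 by at most 0.25. Of the 12, 5 were thus higher with siRNA 1, near the 45.7% of all measured genes. At least 1.5-fold higher were 4 of the 12, where 6.52% of all measured genes were, and 0 were 2-fold higher, where 1.56% were. Other probe sets did not keep these ranges. In 3 genes some took the opposite sign, at -0.25 and -0.20 for KIF1B, -0.07 for KIF5C and 0.45 for KIF3C. The KIF3C value was taken against the floor.

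Certain promoter letters were more common in the mitotic kinesins than over all genes, while the transport kinesins were near the shares of all genes. Many G2 and M phase genes carry a cell cycle genes homology region, or CHR, with the core TTTGAA or TTCGAA, downstream of 1 or more CCAAT boxes. Both were searched on both strands, which adds TTCAAA for the CHR and ATTGG for the CCAAT box, in RefSeq windows (GRCh38.p14) from 250 bases before to 50 bases after the annotated start. In the kinesin windows no CHR match overlapped a CCAAT match. Of the 41 kinesin genes 33 had a window. Of the 12 mitotic kinesins 10 held the CHR core, against 16.4% of all 35116 windows and 15.2% of measured genes. A CCAAT box was found in 10 of the 12, against 34.6% and 43.7%. Both were present in 9 of the 12, against 6.38% and 6.54%. Of 11 transport kinesins with a window 1 held the CHR core (KIF5B), 4 a CCAAT box and 1 both. These counts are 9.09%, 36.4% and 9.09%, near the shares of all measured genes. In the 9 mitotic genes both lay from 100 bases before the start onward, an arrangement found in 1.86% of all windows and in 0 of 11 transport kinesins. That distance was chosen after the positions were seen. Among the mitotic genes KIF15 held only the CHR core, KIF20A only CCAAT boxes and KIF2C neither. A match of letters is a description and does not show a bound factor.

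Stretches of 100 bases just before the start are printed for 5 mitotic kinesins that carry both motifs there. KIF14 is printed as the gene with the largest siRNA 2 difference, and KIF24 as a gene outside the mitotic group. KIF3A and KIF21A, whose windows held neither motif, are printed as contrasts. Capitals mark the CHR core and the CCAAT box on either strand, and each runs 5′ to 3′ on the gene's strand.
KIF11 (chr10:92593030-92593129, plus strand): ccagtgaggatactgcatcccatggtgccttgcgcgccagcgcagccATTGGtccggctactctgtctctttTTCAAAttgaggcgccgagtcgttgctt
KIF23 (chr15:69414249-69414348, plus strand): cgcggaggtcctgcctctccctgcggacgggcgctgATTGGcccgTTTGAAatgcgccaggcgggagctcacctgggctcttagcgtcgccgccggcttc
KIF18A (chr11:28108157-28108256, minus strand): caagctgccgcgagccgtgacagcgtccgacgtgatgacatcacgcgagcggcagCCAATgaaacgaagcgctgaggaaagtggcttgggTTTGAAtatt
KIF4A (chrX:70290004-70290103, plus strand): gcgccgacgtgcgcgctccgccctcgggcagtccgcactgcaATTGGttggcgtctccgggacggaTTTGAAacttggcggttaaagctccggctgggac
KIF22 (chr16:29790651-29790750, plus strand): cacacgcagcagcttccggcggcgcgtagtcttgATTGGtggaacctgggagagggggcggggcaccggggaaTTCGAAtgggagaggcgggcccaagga
KIF14 (chr1:200620752-200620851, minus strand): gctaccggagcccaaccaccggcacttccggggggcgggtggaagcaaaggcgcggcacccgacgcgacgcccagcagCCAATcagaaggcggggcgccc
KIF24 (chr9:34329269-34329368, minus strand): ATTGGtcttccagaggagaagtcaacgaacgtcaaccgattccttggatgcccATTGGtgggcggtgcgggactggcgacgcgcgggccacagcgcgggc
KIF3A (chr5:132737547-132737646, minus strand): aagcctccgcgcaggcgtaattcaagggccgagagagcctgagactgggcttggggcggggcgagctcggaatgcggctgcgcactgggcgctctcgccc
KIF21A (chr12:39443121-39443220, minus strand): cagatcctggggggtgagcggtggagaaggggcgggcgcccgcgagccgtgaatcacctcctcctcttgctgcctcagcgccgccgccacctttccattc

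In KIF11, KIF23, KIF18A, KIF4A and KIF22 the CCAAT letters come first and the CHR core follows nearer to the start. In KIF14 and KIF24 the CHR core begins 1 base past the first base of the gene, so it is not in the stretch printed. The sequences of KIF3A and KIF21A carry no capitals, as their windows held neither motif, and they do not stand for all transport or other kinesins. Among transport kinesins not printed, KIF3B held a CCAAT box at -78 and KIF5B at -59.

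**Figure D3:**
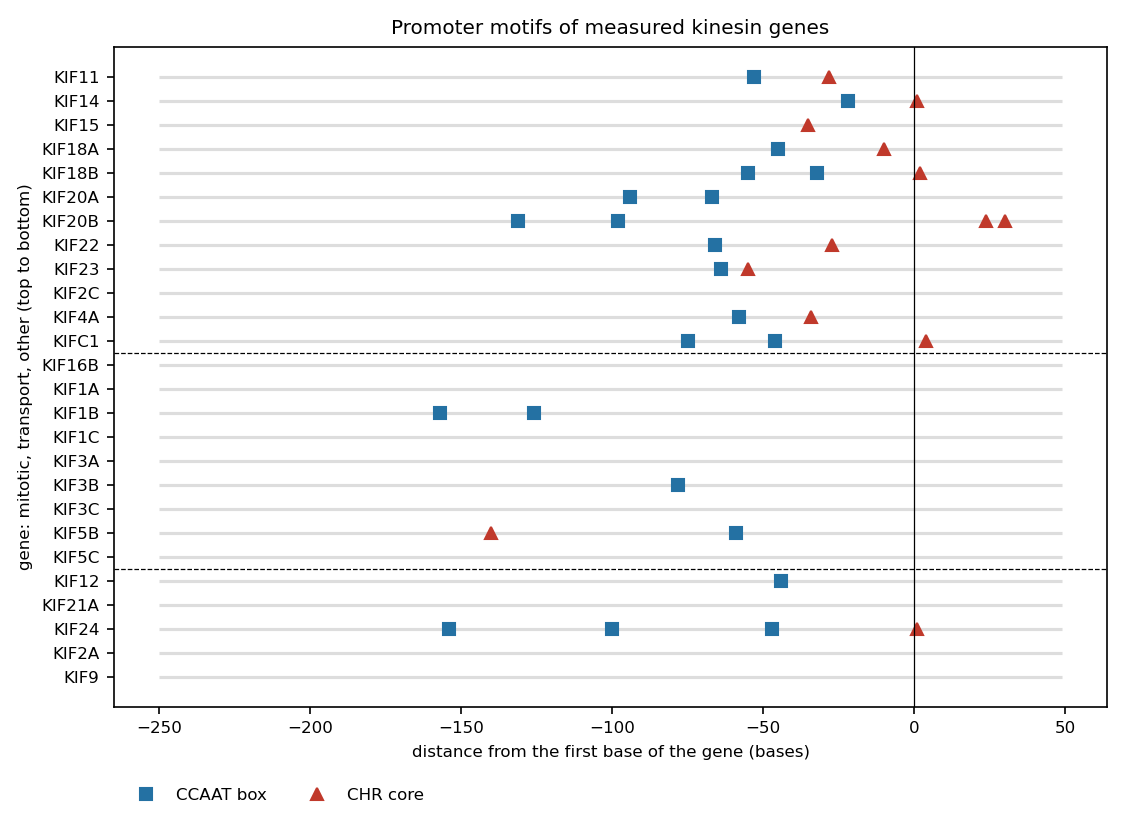
Distance in bases from the first base of the gene (x axis) to the CCAAT boxes (squares) and CHR cores (triangles) in the first listed RefSeq window of each of the 26 measured kinesin genes with a window, with mitotic, transport and other genes from top to bottom. Squares followed by a triangle near 0 recur in the mitotic rows and in KIF24, and the transport rows hold 1 triangle in all, that of KIF5B at -140.

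The heavy chains of conventional kinesin that were measured read at or above the control, unlike the mitotic motors. KIF5B, the ubiquitous heavy chain of conventional kinesin, read 1525.2 on the control array, 1894.9 on the siRNA 1 array and 2146.8 on the siRNA 2 array. Its differences were 0.31 and 0.49, and over its 4 probe sets they ranged from -0.01 to 0.31 and from 0.30 to 0.49. Thus all 4 probe sets were higher with siRNA 2, by less than the 1.5-fold that 4.75% of all measured genes passed, while with siRNA 1 they were on both sides of 0. KIF5C, a heavy chain best known from neurons, read 169, 251 and 177, with differences of 0.57 and 0.07, but its second measured probe set gave 0.00 with siRNA 1. KIF5A, another neuronal heavy chain, was under the floor.

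KIF3A pairs with KIF3B in the heterotrimeric kinesin that serves cilia, and can also pair with KIF3C. KIF3A read 133 on the control array, 141 on the siRNA 1 array and 79.5 on the siRNA 2 array. It was lower on the siRNA 2 array only, with a difference of -0.74 against 0.08 for siRNA 1, and was the 1 transport kinesin of 12 past 1.5-fold below the control, a count near the 4.67% of all measured genes. Its 3 probe sets ranged from -0.88 to -0.22 with siRNA 2, the last against the floor, and from -0.01 to 0.19 with siRNA 1. Its partner KIF3B read 830.0, 809 and 903, differences of -0.04 and 0.12. KIF3C read 49.3, 58.7 and 63.3, or 0.25 and 0.36, and its second probe set gave 0.43 and -0.02. That probe set read 26.4, 35.6 and 23.1. Its control value was barely above the floor, so it could not show a fall. The low siRNA 2 value of KIF3A was not seen in KIF3B or in the KIF3C probe set of highest mean. The second KIF3C probe set cannot decide this. KIF17, a motor of ciliary and dendritic cargo, was under the floor.

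Several members of the vesicle- and organelle-carrying kinesins were split between the siRNA arrays. KIF1B, whose isoforms carry mitochondria or synaptic vesicle precursors, read 447 on the control array, 726 on the siRNA 1 array and 423 on the siRNA 2 array. The difference was 0.70 with siRNA 1 and -0.08 with siRNA 2. It was the 1 transport kinesin of 12 past 1.5-fold above the control with siRNA 1, a count near the 6.90% of all measured genes. Its 5 measured probe sets showed different patterns. In 3 of them siRNA 1 was higher than the control by 0.56 to 0.70 and siRNA 2 lower by 0.08 to 0.22. In the other 2 the differences were 0.29 and -0.05 with siRNA 1 and 0.55 and 0.15 with siRNA 2. Which KIF1B transcripts each probe set reads was not analysed here. KIF13B read 44.7, 65.3 and 41.9, or 0.55 and -0.09. KIF1C, a carrier of vesicles along long processes, read 227, 244 and 159, or 0.10 and -0.52. KIF1A, a carrier of synaptic vesicle precursors, read 499, 507 and 538, or 0.02 and 0.11. Its 4 other probe sets gave -0.59 to -0.07 with siRNA 1, so its direction was not settled. KIF16B, which moves early endosomes, read 34.4, 26.5 and 31.4, close to the floor, with differences of -0.38 and -0.13. KIF13A was under the floor.

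The minus-end-directed KIFC2 and KIFC3, relatives of KIFC1 outside mitosis, stayed near the control. KIFC2 read 65.2 on the control array, 76.6 on the siRNA 1 array and 81.5 on the siRNA 2 array, or 0.23 and 0.32. KIFC3 read 33.8, 28 and 30.5, or -0.27 and -0.15, and its 4 measured probe sets lay on both sides of 0 with each siRNA. With siRNA 1 the only probe set above 0 had a control under the floor, at 25.2, so it could not lie below 0. The mitotic member KIFC1 had -1.39 and -0.56.

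**Figure D4:**
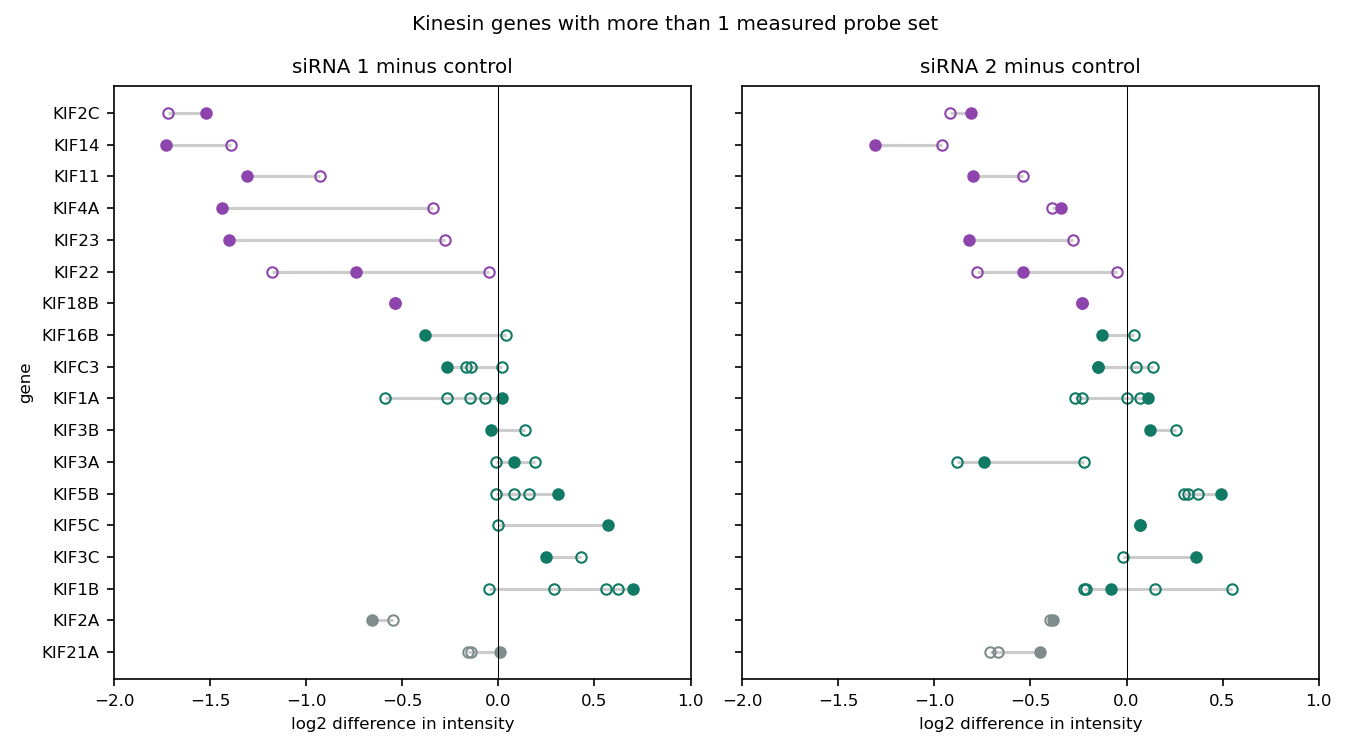
Log2 difference from the control (x axis) of every measured probe set for kinesins with more than 1 of them (y axis), with the probe set that stands for the gene filled and others open, for siRNA 1 on the left and siRNA 2 on the right. Probe sets of the 7 mitotic genes, at the top, lie below 0 in both panels, which the floor fixes in advance for 1 of KIF22 and 1 of KIF23 that were above it in the control alone, and the KIF18B point is a pair of identical probe sets. Those of 7 of 9 transport genes with siRNA 1 and 5 of 9 with siRNA 2 lie on both sides of 0. Among these, 1 probe set of KIF16B and 1 of KIFC3 had a control under the floor, at 25.9 and 25.2. The floor thus kept them from lying below 0, so these counts are not all opposed readings.

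Agreement between probe sets differed by role. Over probe sets above the floor on all 3 arrays, with identical ones counted once, 13 of 13 mitotic probe sets were below the control with each siRNA, with medians of -1.39 and -0.81. Of 26 such transport probe sets, 10 were below and 15 above the control with siRNA 1, and 11 were below and 14 above with siRNA 2, with medians of 0.08 and 0.07. The sign of the difference of a single transport kinesin thus often rested on the probe set chosen, with KIF3A and KIF5B for siRNA 2 among the exceptions. With siRNA 1, however, all 7 transport genes split in sign had 1 side within about 0.05 of 0. Values so near 0 set no direction, so agreement in sign was not separated here from the size of the differences.

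The 6 measured kinesins outside both groups were mixed in direction and in role. Below the control were 3 with siRNA 1 (48.0% of all measured genes) and 4 with siRNA 2 (46.9%). KIF24, which shortens centriolar microtubules and restrains cilium growth, read 62.5 on the control array, 33.6 on the siRNA 1 array and 38.2 on the siRNA 2 array. Its differences of -0.90 and -0.71 were the largest of these 6, and its promoter held both motifs. The second KIF24 probe set was under the floor. KIF2A, a depolymerase like KIF2C that serves both spindle poles and neurons, read 260.1, 165 and 200.3, or -0.66 and -0.38. Its second probe set gave -0.55 and -0.40, so both agreed in direction, and its window held neither motif. KIF9, a motor of motile cilia and flagella, read 786, 548 and 559, or -0.52 and -0.49. The siRNA arrays thus lay within 0.03 of each other for KIF9. KIF21A, which restrains microtubule growth at the cell edge, read 513, 516 and 375, or 0.01 and -0.45. In its 3 probe sets the siRNA 2 difference ran from -0.71 to -0.45 and the siRNA 1 difference from -0.16 to 0.01, the same split as KIF3A. KIF21B, its relative, read 31.5, 32.6 and 36.1, and KIF12 read 26.8, 27.9 and 26.9, both close to the floor. KIF2B, KIF6, KIF7, KIF19, KIF25, KIF26A, KIF26B and KIF27 were under the floor on all arrays.

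Genes whose products work with these motors were described in the same way. Of 20 mitotic partners, which include the kinesin CENPE that the naming rule does not match, 19 were below the control with siRNA 1 (48.0% of all measured genes) and 14 at least 2-fold lower (1.76%), with a median of -1.26. With siRNA 2, 17 were below it (46.9%) and 0 were 2-fold lower (0.603%), with a median of -0.46. Between the siRNAs the median was -0.81. AURKB, the passenger complex kinase that KIF20A carries, differed by -1.67 and -0.59, and CDCA8 of the same complex by -1.83 and -0.95. That complex did not differ as 1 block, as BIRC5 differed by -1.27 and -0.43 and INCENP by only -0.37 and 0.04. TPX2, which binds KIF11 on the spindle, differed by -1.50 and -0.62, and the kinase AURKA, which TPX2 activates, by -1.55 and -0.68. AURKB, CDCA8, TPX2 and AURKA had the largest mean absolute differences of the list. Above the control were NUMA1 with both siRNAs (0.32 and 0.30), and RACGAP1 (0.15) and INCENP with siRNA 2 only. The partner medians were thus close to that of the mitotic kinesins with siRNA 1 (-1.35), nearer to 0 with siRNA 2 (-0.68) and further from 0 between the siRNAs (-0.55).

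Of 19 measured transport partners, such as kinesin light chains and cargo adaptors, 8 were below and 11 above the control with siRNA 1, near the shares of all measured genes (48.0% and 50.3%), and 4 below and 15 above with siRNA 2 (46.9% and 51.7%). Their medians were 0.16 and 0.21, and 0 were 2-fold different. The light chain gene KLC1 differed by 0.56 and 0.53, the mitochondrial adaptor gene TRAK1 by 0.73 and 0.42, the scaffold gene MAPK8IP3 by 0.55 and 0.61, and BLOC1S1, a subunit of complexes that link lysosomes to kinesin, by -0.85 and -0.24. Cytoplasmic dynein and dynactin, which move cargo the opposite way to most kinesins, had medians of 0.19 and 0.20 over 19 measured genes, and 0 of them were 2-fold different. With 1.76% of all measured genes 2-fold lower and 1.36% higher with siRNA 1, and 0.603% and 0.789% with siRNA 2, a count of 0 in lists of this size says little. The light chain gene DYNLT3 differed by 0.83 and 0.57, DYNLT1 by 0.36 and 0.70, and the adaptor gene BICD2 by 0.72 and 0.35, while the light intermediate chain gene DYNC1LI1 differed by -0.48 and -0.46.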

How the data were processed

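The authors deposited probe set intensities on a linear scale in 1 table for the 3 arrays. GCOS 1.4 was used, per the submitters' processing notes, and the background correction, summarisation and normalization are not given in the sources used here. Sorted log2 values of any 2 arrays differed by at most 0.10, so the main values were not rescaled, and a shift of most transcripts in 1 direction would not be seen if the arrays had been brought to a common distribution. Intensities were put on the log2 scale with numpy 2.4.6 and pandas 2.3.3. Values were raised to a floor at the 50th percentile of all values. A gene was represented by its probe set of highest mean among those with 1 annotated symbol, and 41 of 41 kinesin symbols matched RefSeq by Entrez identifier. Every measured kinesin was named with its values, and of each list of partner genes the 4 with the largest mean absolute difference. Mitotic partners above the control, and BIRC5 of the passenger complex, were named too. Background shares count all measured genes past the same threshold. The counting was tested on simulated data with an assumed noise and known changes in genes far above the floor. That says nothing of genes near the floor, where some kinesins lay. The members, roles, lists and motifs were chosen with earlier results of these data known. Alternatives changed the floor, the scaling, the probe set rule, the summary, the threshold and the place of KIF2A. With 1 array for each group, precision is limited by the number of arrays.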

Additional observations from a re-analysis of the deposited data

Results flagged for a closer look

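A set of 4 transport kinesins lay on opposite sides of the control with the siRNAs and at least 1.5-fold apart between them. Given as siRNA 1 minus siRNA 2 on the log2 scale, the gap was 0.82 for KIF3A, 0.78 for KIF1B, 0.64 for KIF13B and 0.62 for KIF1C. Of all measured genes, 6.79% met the same rule, and for each of these 4 genes 1 of the siRNA values lay about 0.10 or less from the control, so the opposite side is not firm. With 1 array per group these differences were not tested. The gap was 0.40 to 0.87 over the 3 probe sets of KIF3A, and -0.25 to 0.84 over the 5 of KIF1B. KIF13B and KIF1C each had 1 measured probe set.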

How the results depend on the processing

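Of 135 values recomputed under alternatives, 100 stayed within 0.1 on the log2 scale, or within 1.5 times for counts, and 35 moved further. None of the medians of the mitotic kinesins changed sign. With the floor at the 75th percentile, which left 7 mitotic, 7 transport and 3 other genes, the mitotic medians were -0.78 with siRNA 1, -0.56 with siRNA 2 and -0.22 between the siRNAs. The gap to the transport kinesins was then -0.89 with siRNA 1, the transport median between the siRNAs 0.22 and the other median -0.52 with siRNA 1. The 2-fold lower mitotic counts were 3 with siRNA 1 and 0 with siRNA 2. With the floor at the 25th percentile the gap between mitotic and transport medians was -0.57 between the siRNAs and the other median -0.05 with siRNA 2, which was -0.07 with no floor. With the mean of all probe sets the siRNA 2 mitotic median was -0.56, the gap -0.57 with siRNA 2 and -0.61 between the siRNAs, the other medians -0.07 with each siRNA, and the transport median between the siRNAs 0.02. With plain probe sets only, which left 3 mitotic genes, the mitotic median was -0.84 with siRNA 2 and -0.42 between the siRNAs, the gap between the siRNAs -0.88, the transport median there 0.45, and the other value, from 1 gene, 0.06, 0.00 and 0.06 in the 3 comparisons. The 2-fold lower mitotic counts were then 3 and 0. As means, the mitotic value was -1.22 with siRNA 1, the other value -0.31 with siRNA 2 and the transport value between the siRNAs 0.20. With KIF2A and KIF2B counted as mitotic the siRNA 2 median was -0.56 and the gap -0.55. At 3-fold 2 mitotic kinesins were lower with siRNA 1 and 0 with siRNA 2, and at 1.5-fold 6 mitotic and 1 transport kinesin were lower with siRNA 2. Fewer genes were measured under the high floor and with plain probe sets, and the cause of the other shifts was not tested. Quantile normalization and centring on measured genes moved none of these values past those limits. Planned counts of genes on the same side of the control in both siRNA libraries were not run, because both differences share the control array. No paired analysis was possible because each group held 1 array.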
